A study of Mus musculus with 24 samples.

Results

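The 10 genes described here encode the classical cadherins and their nearest relatives: Cdh1, Cdh2, Cdh3, Cdh4 and Cdh15 of type I, Cdh6, Cdh8 and Cdh11 of type II, the divergent Cdh5, and Cdh13, which lacks the transmembrane and cytoplasmic parts and is held in the membrane by a glycosylphosphatidylinositol anchor. They were taken by gene symbol from the 19505 genes that the array measured under a single symbol, and each was read by 1 probe set. The family was selected on the measured Cdh4 values, which were lower in knockout mice in both tissues, so the genotype differences of Cdh4 are given as a description, with no test.

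Transcripts were read on the Mouse Clariom S HT array in 4 groups of 6 mice: Tatdn1-/- ventricle, Tatdn1+/+ ventricle, Tatdn1-/- cortex and Tatdn1+/+ cortex, with 3 females and 3 males in each. All mice were 2 months old and on a C57BL/6J background, and each gave 1 ventricle and 1 cortex array, 24 arrays in all. In Tatdn1-/- mice, exon 3 of Tatdn1 had been removed in the whole body by crossing a floxed allele with CAG-Cre mice, whose transgene is active in most cells, and the Cre transgene had then been bred out. The line had also passed through a FLPe cross that removed the selection cassette, and both genotypes came from intercrosses of heterozygous mice without Cre. According to the methods, the heart tissue was left ventricle. The animal codes of all Tatdn1-/- mice start with 77 or 78 and those of all Tatdn1+/+ mice with 75 or 76, so whatever the codes mark cannot be told apart from genotype.

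Cadherins are calcium-dependent adhesion molecules that join neighbouring cells by binding, mostly, to the same cadherin on the facing membrane. Their cytoplasmic tails bind β-catenin and p120-catenin, and through α-catenin they reach the actin cytoskeleton. In the heart, N-cadherin (Cdh2) is the classical cadherin of the intercalated disc, the junction that couples cardiomyocytes end to end. VE-cadherin (Cdh5) closes the junctions between endothelial cells, and in the brain several type I and type II cadherins mark subsets of neurons and their synapses.

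Values are log2 units of the deposited array table, in which a difference of 1 is a doubling. Levels of different probe sets were not set against each other. A value was called above background when it exceeded the 95th percentile of the background control probe sets of its own array, a limit that ran between 3.37 and 4.83 over the 24 arrays. The targeted gene averaged 5.49 ± 0.39 in Tatdn1-/- ventricles and 6.85 ± 0.25 in Tatdn1+/+ ventricles, and 4.99 ± 0.31 in Tatdn1-/- cortices and 5.77 ± 0.34 in Tatdn1+/+ cortices (SD, n = 6 each). The difference passed the test in ventricle (adjusted p = 0.0156 in limma), where the ranges of 4.97 to 6.03 in Tatdn1-/- and 6.53 to 7.15 in Tatdn1+/+ mice did not overlap. In cortex it did not pass (adjusted p = 0.168), and the ranges of 4.44 to 5.31 in Tatdn1-/- and 5.29 to 6.16 in Tatdn1+/+ mice overlapped slightly. The sources used here do not give whether its probes lie in the removed exon. One Tatdn1-/- ventricle, that of female F77-2, stood apart: its 4 atrial cardiomyocyte markers averaged 9.09, against 4.67 to 5.34 on the other 11 ventricle arrays. All 8 cardiomyocyte markers were above background on every ventricle array, and all 7 neuron markers on every cortex array.

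**Figure D1:**
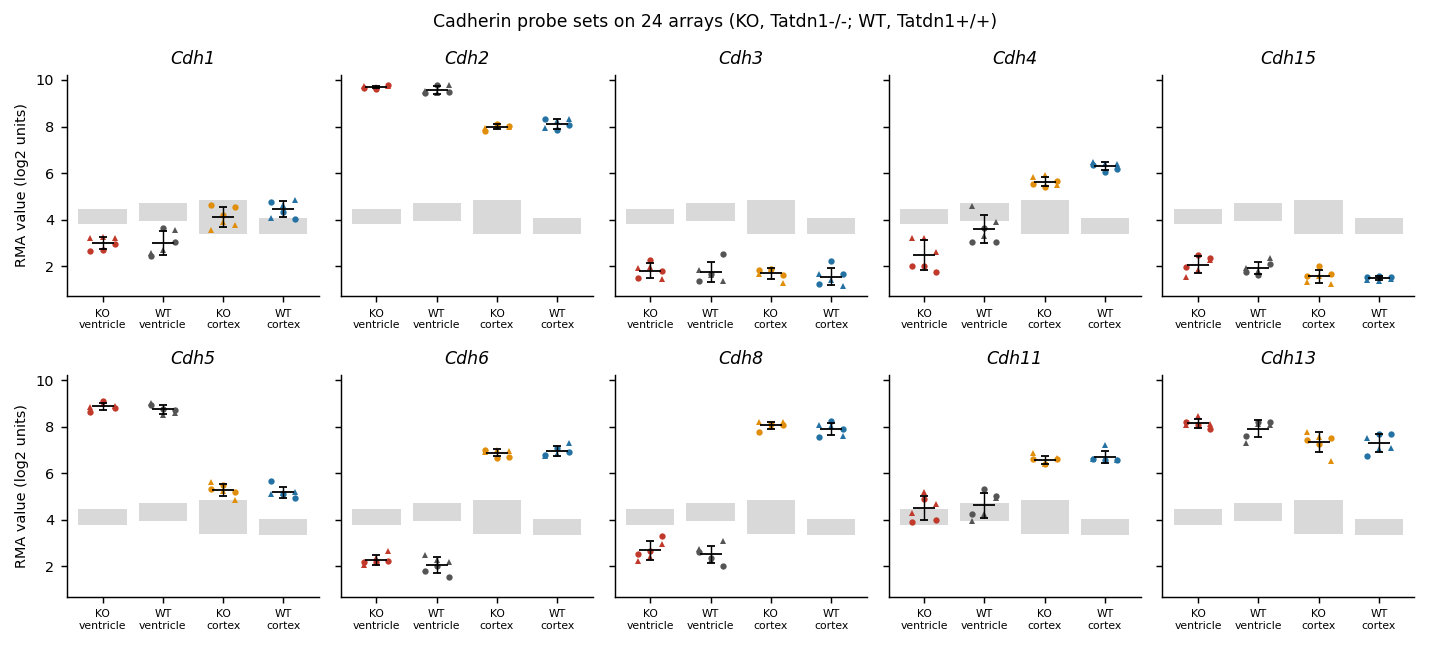
Array values (log2 units) of the 10 cadherin genes in Tatdn1-/- (KO) and Tatdn1+/+ (WT) ventricle and cortex, with females as circles, males as triangles, the mean and SD of 6 mice as black bars, and the range of background limits of each group's arrays as a grey band. Cdh2 and Cdh5 lie higher in ventricle, Cdh4, Cdh6, Cdh8 and Cdh11 lie higher in cortex, and Cdh3 and Cdh15 lie under the band in every group.

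Not the same members lay above background in the 2 tissues. In ventricle, Cdh2, Cdh5 and Cdh13 were above the limit on every array of both genotypes, and Cdh11 on 4 of 6 Tatdn1-/- and 5 of 6 Tatdn1+/+ arrays. The remaining 6 members were under it on all 12 ventricle arrays. In cortex, Cdh2, Cdh4, Cdh5, Cdh6, Cdh8, Cdh11 and Cdh13 were above the limit on every array, and Cdh1 on 4 of 6 Tatdn1-/- and 6 of 6 Tatdn1+/+ arrays. Cdh3 and Cdh15 were not above background on any array, so that for these genes the array gives only an upper bound.

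Cdh4 encodes R-cadherin, a type I cadherin first known from the retina and expressed in parts of the developing and adult brain, which can also bind N-cadherin. It lies on chromosome 2 (chr2:179442423-179899377, GRCm38.p6), while Tatdn1 lies on chromosome 15. In cortex its values were 5.40, 5.51 and 5.66 in Tatdn1-/- females and 5.48, 5.82 and 5.91 in Tatdn1-/- males, against 6.05, 6.16 and 6.34 in Tatdn1+/+ females and 6.39, 6.40 and 6.46 in Tatdn1+/+ males. Every Tatdn1-/- cortex lay under every Tatdn1+/+ cortex. The mean was 5.63 ± 0.20 in Tatdn1-/- cortices and 6.30 ± 0.16 in Tatdn1+/+ cortices (SD, n = 6 each), a difference of -0.67 (SE 0.12), or 1.59-fold lower. Of all 22206 probe sets, 0.45% had Tatdn1-/- ranges wholly under the Tatdn1+/+ ranges in cortex, and since the gene was picked for this difference nothing is read from that share.

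In ventricle, the Cdh4 signal was 1.73, 1.99 and 2.02 in Tatdn1-/- females and 2.63, 3.20 and 3.22 in Tatdn1-/- males. In Tatdn1+/+ mice it was 3.03, 3.06 and 3.66 in females and 3.27, 3.88 and 4.59 in males. The ranges of the 6 Tatdn1-/- and the 6 Tatdn1+/+ ventricles overlapped, but within females and within males they did not, a pattern that 0.468% of all probe sets showed in ventricle and from which, again, nothing is read. The mean was 2.46 ± 0.65 in Tatdn1-/- ventricles and 3.58 ± 0.60 in Tatdn1+/+ ventricles, a difference of -1.12 (SE 0.31). All 12 values were under the background limit of their array, by 0.70 to 2.72 in Tatdn1-/- mice and by 0.14 to 1.04 in Tatdn1+/+ mice, so the ventricle gives no fold change for this gene. Without the atrial-rich ventricle F77-2 the difference was -1.03, and leaving out single mice gave -1.27 to -0.92. The difference between tissues in the Cdh4 genotype difference was -0.45 (SE 0.34), and it rests on the same ventricle values.

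**Figure D2:**
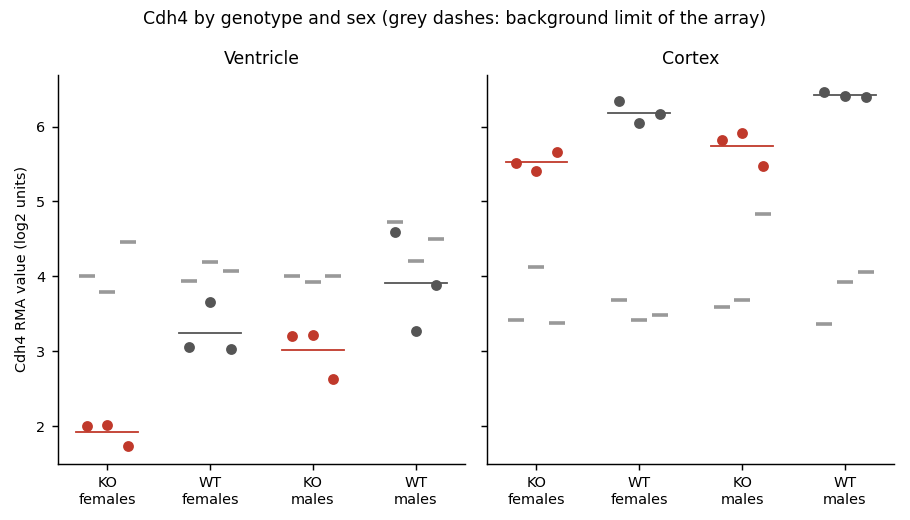
Cdh4 array values (log2 units) in ventricle and cortex by sex and genotype, with 1 point for each of 3 mice, the mean as a line and the background limit of each array as a grey dash. In each sex and tissue the 3 Tatdn1-/- points lie under the 3 Tatdn1+/+ points, and all ventricle points lie under their dashes.

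Markers of some of the cell types that a piece of either tissue can hold stood as follows. All 7 neuron markers averaged 9.76 to 9.89 in Tatdn1-/- and 9.70 to 9.84 in Tatdn1+/+ cortices, and the 6 striatal neuron markers 7.97 to 8.37 in Tatdn1-/- and 7.44 to 8.38 in Tatdn1+/+ cortices. The 5 oligodendrocyte markers averaged 7.84 to 8.40 in Tatdn1-/- and 7.59 to 8.45 in Tatdn1+/+ cortices. Although these ranges overlapped, the means of both lists lay on the Tatdn1-/- side in cortex: for the striatal markers 6 of 6 were higher there, with a median difference of 0.22, and for the oligodendrocyte markers 5 of 5, with a median of 0.34, against -0.02 over all probe sets. None of these passed the test. At an unadjusted p under 0.05 stood Ppp1r1b (0.48, SE 0.13, adjusted p = 0.372 in limma), Mbp (0.34, SE 0.12, adjusted p = 0.538) and Cnp (0.40, SE 0.16, adjusted p = 0.626), beside 6.98% of all probe sets. In ventricles, the neuron markers averaged 3.21 to 4.81 in Tatdn1-/- and 3.07 to 4.04 in Tatdn1+/+ mice, with the highest mean in the Tatdn1-/- male M78-1. Slc17a7 (means 6.99 in Tatdn1-/- and 7.03 in Tatdn1+/+ mice) and Stmn2 (5.61 and 5.48) were above background on every ventricle array. Snap25 was above it in 3 of 6 Tatdn1-/- and 2 of 6 Tatdn1+/+ ventricles, and Rbfox3, Gad1 and Gad2 in none. There Syt1 averaged 4.29 in Tatdn1-/- and 3.13 in Tatdn1+/+ mice (difference 1.16, SE 0.50, adjusted p = 0.547 in limma), and was above background in 3 of 6 Tatdn1-/- and 0 of 6 Tatdn1+/+ ventricles. Of the 6 striatal markers, Penk (0.42, adjusted p = 0.502 in limma) and Drd2 (1.05, adjusted p = 0.539) had an unadjusted p under 0.05 in ventricle, beside 8.46% of all probe sets. Neither passed, and Drd2 was above background in 2 of 6 Tatdn1-/- and 0 of 6 Tatdn1+/+ ventricles. The astrocyte markers were higher in Tatdn1-/- ventricles for 5 of 5, with a median difference of 0.23, against 0.02 over all probe sets. None of them passed, and in each genotype only 1 was above background on every ventricle array. The part of any such cells in the Cdh4 values was not tested. In pieces of tissue, fewer cells of a type and less RNA per cell cannot be told apart.

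No member passed the test for a difference between the sexes. For Cdh4, females averaged 2.58 ± 0.77 and males 3.46 ± 0.68 in ventricle, a difference of -0.88 (SE 0.21, n = 6 each, genotype as a term). In limma this gave an unadjusted p of 0.000921 and an adjusted p of 0.53, so the difference did not pass the test, and all values were below background. In cortex, females averaged 5.85 and males 6.08 (difference -0.22, SE 0.11, adjusted p = 0.967 in limma). In each tissue 0 of the 10 members passed for sex, where 0.018% of all probe sets did. At an unadjusted p under 0.05 stood Cdh4 and Cdh6 in ventricle (Cdh6 difference -0.34, SE 0.14) and Cdh15 in cortex (0.26, SE 0.12), beside 5.56% and 4.45% of all probe sets. Cdh6 was below background on every ventricle array and Cdh15 on every cortex array.

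None of the other 9 members passed the test for genotype. In ventricle 0 of the 9 were called (0.0135% of all probe sets did), and 0 had an unadjusted p under 0.05 in limma (8.46% of all). Their differences ran from -0.12 for Cdh11 to 0.23 for Cdh13, with adjusted p-values of 0.735 to 0.996 and 95% intervals that reached from -0.69 to 0.60. Cdh1, Cdh3, Cdh6, Cdh15 and Cdh8, whose interval sets the upper end, were below background on every ventricle array. Their intervals there do not bound a change of the transcript. In cortex, likewise, 0 of 9 passed (0.00901% of all probe sets) and 0 had an unadjusted p under 0.05 (6.98% of all). There the differences ran from -0.36 for Cdh1 to 0.16 for Cdh8, with adjusted p-values of 0.749 to 0.977 and intervals from -0.78 to 0.49. Cdh15 and Cdh3, whose interval sets the upper end, were below background on every cortex array. The median difference of all 10 members was 0.12 in ventricle, against 0.02 over all probe sets, and -0.01 in cortex, against -0.02. When the genotype differences of ventricle and cortex were tested against each other, 0 of 9 passed (0.0135% of all probe sets), with adjusted p-values of 0.603 to 0.995 in limma.

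**Figure D3:**
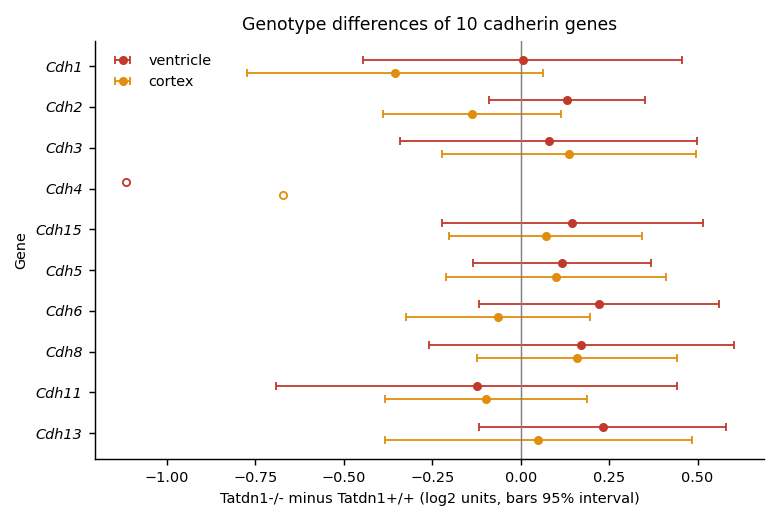
Tatdn1-/- minus Tatdn1+/+ difference (log2 units, horizontal axis) of each cadherin gene in ventricle (upper point of a pair) and cortex (lower point), with 95% intervals from limma over 6 mice per genotype for 9 genes. Cdh4, the gene on which the family was chosen, is shown by open points without intervals, at -1.12 in ventricle and -0.67 in cortex, and the intervals of the other 9 genes include 0.

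Between the tissues most members passed the test, and this comparison was not used to choose them. Of the 10 genes, 9 passed the test in Tatdn1-/- mice and 9 in Tatdn1+/+ mice, in limma over all probe sets, where 55.1% of all probe sets passed in Tatdn1-/- and 55.5% in Tatdn1+/+ mice. In each genotype 4 were higher in ventricle (Cdh2, Cdh5, Cdh13 and Cdh15, beside 29.8% of all probe sets in Tatdn1-/- and 29.3% in Tatdn1+/+ mice) and 5 were lower (Cdh1, Cdh4, Cdh6, Cdh8 and Cdh11, beside 25.3% in Tatdn1-/- and 26.3% in Tatdn1+/+ mice). The Cdh15 calls lie between values that were below background in both tissues. Ventricle and cortex ranges did not overlap for 8 of 10 members in either genotype (40.1% of all probe sets in Tatdn1-/- and 39.2% in Tatdn1+/+ mice). Centring each array on its median moved the median tissue difference over all probe sets by 0.33 in Tatdn1-/- and 0.41 in Tatdn1+/+ mice and turned the direction of no member. Under that centring the called probe sets were 12178 higher and 4280 lower in Tatdn1-/- mice, against 6618 and 5623 as deposited, and 13484 higher and 4323 lower in Tatdn1+/+ mice, against 6498 and 5833.

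**Figure D4:**
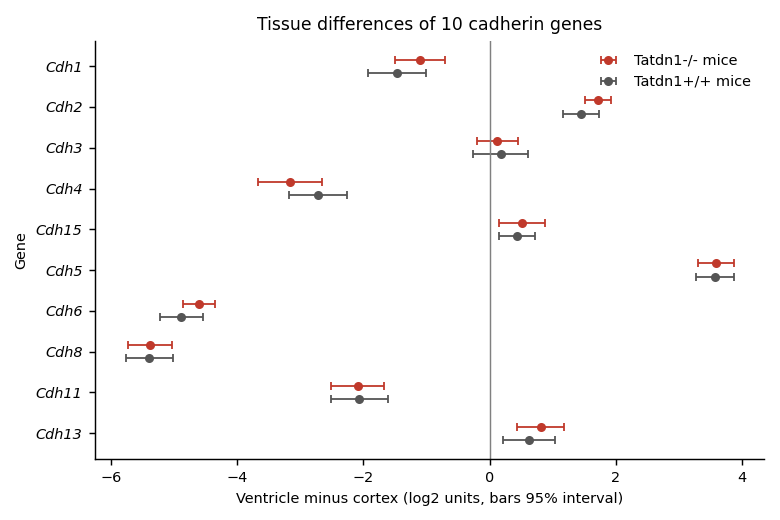
Ventricle minus cortex difference (log2 units, horizontal axis) of each cadherin gene in Tatdn1-/- mice (upper point of a pair) and Tatdn1+/+ mice (lower point), with 95% intervals from limma over 6 mice per genotype. The points run from -5.39 for Cdh8 to 3.59 for Cdh5, and only the intervals of Cdh3 include 0.

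N-cadherin (Cdh2) ranged from 9.62 to 9.78 with a median of 9.71 in Tatdn1-/- ventricles, and from 7.81 to 8.12 with a median of 8.01 in Tatdn1-/- cortices. Tatdn1+/+ values ran from 9.42 to 9.80 with a median of 9.50 in ventricles, and from 7.84 to 8.34 with a median of 8.16 in cortices. Both tissues were far above background, and all ventricles exceeded all cortices. The difference was 1.71 (SE 0.10, 3.28-fold, adjusted p = 7.46e-11) in Tatdn1-/- and 1.44 (SE 0.13, 2.72-fold, adjusted p = 2.19e-08) in Tatdn1+/+ mice. Its genotype difference was 0.13 in ventricle and -0.14 in cortex, and the difference between these did not pass the test (0.27, SE 0.15, adjusted p = 0.603).

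VE-cadherin (Cdh5) had the widest gap among the members higher in ventricle. It ranged from 8.65 to 9.10 with a median of 8.88 in Tatdn1-/- ventricles, and from 4.84 to 5.62 with a median of 5.29 in Tatdn1-/- cortices. In Tatdn1+/+ mice, the values ran from 8.50 to 9.01 with a median of 8.75 in ventricles, and from 4.93 to 5.65 with a median of 5.14 in cortices. Every cortex value was above background, by 0.008 in the Tatdn1-/- male M78-1 and by 1.13 to 2.03 in the others. The cortex array of M78-1 had the highest background limit of all arrays (4.83). Between ventricle and cortex, the Cdh5 difference was 3.59 (SE 0.13, 12-fold, adjusted p = 4.67e-13 in limma) in Tatdn1-/- and 3.57 (SE 0.14, 11.9-fold, adjusted p = 9.65e-14) in Tatdn1+/+ mice. Of the 8 endothelial markers, 7 were likewise higher in ventricle in both genotypes (29.8% of all probe sets were in Tatdn1-/- and 29.3% in Tatdn1+/+ mice). The 8th, the tight junction gene Cldn5, named after its values were seen, was lower in Tatdn1-/- mice (difference -0.44, adjusted p = 0.039 in limma), and its difference of -0.43 in Tatdn1+/+ mice did not pass (adjusted p = 0.0523). On single arrays the 8 averaged 6.65 to 7.13 in Tatdn1-/- ventricles and 4.20 to 4.54 in Tatdn1-/- cortices, and 6.70 to 7.05 in Tatdn1+/+ ventricles and 4.23 to 4.54 in Tatdn1+/+ cortices. How much of the Cdh5 gap follows the amount of endothelium was not tested.

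T-cadherin (Cdh13), which binds adiponectin and is found on endothelial and muscle cells and on some neurons, was high in both tissues. It ranged from 7.92 to 8.48 with a median of 8.10 in Tatdn1-/- ventricles and from 6.52 to 7.76 with a median of 7.47 in Tatdn1-/- cortices. In Tatdn1+/+ mice it ranged from 7.31 to 8.21 with a median of 8.10 in ventricles and from 6.75 to 7.67 with a median of 7.30 in cortices, and these ranges overlapped. The difference was 0.81 (SE 0.18, 1.75-fold, adjusted p = 0.000875) in Tatdn1-/- and 0.62 (SE 0.20, 1.54-fold, adjusted p = 0.0111) in Tatdn1+/+ mice. In Tatdn1+/+ mice the call was lost without mouse M75-1 (0.54, adjusted p = 0.0533 in limma) and without mouse M75-2 (0.55, adjusted p = 0.0508).

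The type II cadherins Cdh6 (K-cadherin, known from kidney and brain), Cdh8 and Cdh11 (OB-cadherin, known from bone and mesenchyme) were all lower in ventricle. Cdh8 ranged from 2.24 to 3.32 with a median of 2.61 in Tatdn1-/- ventricles and from 7.79 to 8.20 with a median of 8.10 in Tatdn1-/- cortices. In Tatdn1+/+ mice it ranged from 2.02 to 3.09 with a median of 2.49 in ventricles and from 7.56 to 8.24 with a median of 7.99 in cortices. Its ventricle values were all below background, so the fold is a lower bound. It is set by the mean background limit of the arrays of the dimmer tissue, as for each fold given as "at least". The adjusted p beside such a fold is that of the measured difference in limma. Cdh8 was at least 16.5-fold lower in Tatdn1-/- ventricles than in Tatdn1-/- cortices (adjusted p = 4.48e-14), and at least 12.5-fold lower in the ventricles of Tatdn1+/+ mice (adjusted p = 7.52e-15).

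Cdh6, too, was below background on every ventricle array. It ranged from 2.06 to 2.65 with a median of 2.22 in Tatdn1-/- ventricles and from 6.66 to 7.01 with a median of 6.94 in Tatdn1-/- cortices. The values of Tatdn1+/+ mice ran from 1.53 to 2.50 with a median of 2.11 in ventricles and from 6.74 to 7.29 with a median of 6.87 in cortices. Cdh6 was lower in ventricle by at least 7.19-fold in Tatdn1-/- mice (adjusted p = 7.79e-15) and by at least 6.36-fold in Tatdn1+/+ mice (adjusted p = 9.25e-15). It lies 45.7 Mb from Tatdn1 on chromosome 15, and its genotype differences were 0.22 in ventricle, below background, and -0.06 in cortex.

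Promoter windows from RefSeq (GRCm38.p6, 250 bases before to 50 after a start site) were at hand for 3 of the members. The windows of Cdh6 and Cdh8 are shown because these genes had the widest measured gaps between the tissues, at ventricle values below background. Searched on both strands were 4 short motifs: the GC box GGGCGG, the CCAAT box CCAAT, the TATA box TATAAA and the E-box CAGCTG. Capitals mark the matches, 5′ to 3′ on the minus strand, at chr15:13173626-13173925 for Cdh6 and chr8:99416422-99416721 for Cdh8. Both windows lie inside the annotated span of their gene.
Cdh6: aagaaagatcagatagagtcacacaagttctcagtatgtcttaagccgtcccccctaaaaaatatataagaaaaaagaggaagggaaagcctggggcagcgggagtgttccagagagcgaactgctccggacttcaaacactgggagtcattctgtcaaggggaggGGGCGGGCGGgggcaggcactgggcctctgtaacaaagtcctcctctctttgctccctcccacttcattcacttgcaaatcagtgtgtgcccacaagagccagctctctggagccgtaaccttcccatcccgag
Cdh8: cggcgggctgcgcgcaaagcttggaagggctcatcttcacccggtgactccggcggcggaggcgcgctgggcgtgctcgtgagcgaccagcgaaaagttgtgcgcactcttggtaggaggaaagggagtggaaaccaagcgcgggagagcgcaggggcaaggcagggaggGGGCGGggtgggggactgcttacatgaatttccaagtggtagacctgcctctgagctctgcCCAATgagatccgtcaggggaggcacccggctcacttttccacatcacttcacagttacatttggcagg
The Cdh6 window held 2 overlapping GC boxes and the Cdh8 window 1 GC box and 1 CCAAT box. Of all 32544 windows of this length, 35.9% held a GC box and 37.4% a CCAAT box. Neither window held a TATA box, which 13.6% of windows did, or this E-box, which 16.4% did. The Cdh6 window had 53.0% G and C and 8 CG pairs, and the Cdh8 window 62.3% and 21, against medians of 53.0% and 7. A match says that the letters are there, and the letters shown do not tell which of them is used in these tissues.

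Cdh11 was above background on every cortex array, and on 4 of 6 Tatdn1-/- and 5 of 6 Tatdn1+/+ ventricle arrays. Its folds therefore rest on ventricle values that lie partly near or under the limit. It ranged from 3.89 to 5.21 with a median of 4.50 in Tatdn1-/- ventricles and from 6.39 to 6.87 with a median of 6.61 in Tatdn1-/- cortices. In Tatdn1+/+ mice it ranged from 3.97 to 5.33 with a median of 4.59 in ventricles and from 6.55 to 7.22 with a median of 6.58 in cortices. Cdh11 was 4.27-fold lower in ventricle in Tatdn1-/- mice (difference -2.09, SE 0.20, adjusted p = 8.56e-08) and 4.19-fold lower in Tatdn1+/+ mice (-2.07, SE 0.21, adjusted p = 1.1e-07). Its ventricle spread, an SD of 0.52 in Tatdn1-/- and 0.54 in Tatdn1+/+ mice, was wider than its cortex spread of 0.17 in Tatdn1-/- and 0.26 in Tatdn1+/+ mice.

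For Cdh4, the tissue gap was -3.16 (SE 0.24, adjusted p = 4.22e-09) in Tatdn1-/- and -2.72 (SE 0.22, adjusted p = 3e-09) in Tatdn1+/+ mice. Measured against the background limit, it was at least 3.03-fold lower in the ventricles of Tatdn1-/- mice and at least 4.08-fold lower in those of Tatdn1+/+ mice. Its cortex groups ranked above its ventricle groups in both genotypes. The ventricle groups have no order between them, since all their values were below background.

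E-cadherin (Cdh1), the cadherin of epithelial adherens junctions, sat near the limit of detection. It ranged from 2.66 to 3.25 in Tatdn1-/- ventricles and from 3.57 to 4.64 in Tatdn1-/- cortices, and from 2.44 to 3.63 in Tatdn1+/+ ventricles and from 4.04 to 4.84 in Tatdn1+/+ cortices. The measured ventricle minus cortex difference was -1.105 (SE 0.19, adjusted p = 7.28e-05 in limma) in Tatdn1-/- mice. There 4 of 6 cortices exceeded background, so no fold is given. In Tatdn1+/+ mice, where 6 of 6 cortices did, it was -1.47 (SE 0.22, adjusted p = 1.16e-05 in limma), and Cdh1 was at least 1.13-fold lower in ventricle. All 8 epithelial markers, Epcam and Grhl2 among them, were under the limit on every array of the 4 groups.

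P-cadherin (Cdh3), known from epithelia such as skin and placenta, ranged from 1.44 to 2.25 in Tatdn1-/- ventricles and 1.26 to 1.88 in Tatdn1-/- cortices, and from 1.37 to 2.53 in Tatdn1+/+ ventricles and 1.14 to 2.21 in Tatdn1+/+ cortices. Its tissue difference did not pass (0.12, adjusted p = 0.549 in Tatdn1-/- and 0.18, adjusted p = 0.497 in Tatdn1+/+ mice, limma). With arrays centred on their median it did (0.45, adjusted p = 0.0154 in Tatdn1-/- and 0.58, adjusted p = 0.0131 in Tatdn1+/+ mice), at values below background in both tissues.

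M-cadherin (Cdh15), the cadherin of skeletal muscle satellite cells, averaged 2.06 ± 0.36 in Tatdn1-/- ventricles and 1.55 ± 0.28 in Tatdn1-/- cortices, and 1.92 ± 0.27 in Tatdn1+/+ ventricles and 1.48 ± 0.08 in Tatdn1+/+ cortices (SD, n = 6 each). The difference passed the test in Tatdn1-/- (0.51, adjusted p = 0.0189 in limma) and in Tatdn1+/+ mice (0.43, adjusted p = 0.00999), but between values that were all below background. In Tatdn1-/- mice the call was lost without mouse M78-1 (0.40, adjusted p = 0.0743) and without mouse F77-3 (0.47, adjusted p = 0.055). Of the 6 skeletal muscle and satellite cell markers, Pax7, Myod1, Myf5 and Myh4 were likewise below background on every array. The other 2, Acta1 and Ckm, were above it on every ventricle array of both genotypes.

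Of the 9 type II cadherins outside the 10 genes, 8 were lower in ventricle in Tatdn1-/- and 9 in Tatdn1+/+ mice (25.3% of all probe sets were in Tatdn1-/- and 26.3% in Tatdn1+/+ mice), with a median difference of -3.16 in Tatdn1-/- and -3.21 in Tatdn1+/+ mice, against 0.09 over all probe sets in either genotype. Cdh12 averaged 1.78 in ventricles and 7.26 in cortices of Tatdn1-/- mice, and 1.98 in ventricles and 7.18 in cortices of Tatdn1+/+ mice. Cdh9 averaged 1.67 in ventricles and 6.28 in cortices of Tatdn1-/- mice, and 1.52 in ventricles and 6.12 in cortices of Tatdn1+/+ mice. Cdh10 averaged 1.64 in ventricles and 5.81 in cortices of Tatdn1-/- mice, and 1.21 in ventricles and 6.12 in cortices of Tatdn1+/+ mice. All of these ventricle values lay below background. Cdh24 was under the limit in both tissues on all 24 arrays, with cortex means of 2.30 in Tatdn1-/- and 2.41 in Tatdn1+/+ mice, so its call lies between values below background. The exception in Tatdn1-/- mice was Cdh19 (-0.65, SE 0.31, adjusted p = 0.0857 in limma), above background in 3 of 6 Tatdn1-/- and 4 of 6 Tatdn1+/+ cortices. Both genes are named here after their values were seen. None of the 9 passed for genotype in either tissue (0.0135% of all probe sets did in ventricle and 0.00901% in cortex). At an unadjusted p under 0.05 stood Cdh10 in ventricle (0.44, SE 0.20, adjusted p = 0.577 in limma, below background in both genotypes), beside 8.46% of all probe sets.

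Among the catenins and other partners of the cytoplasmic tail, 13 of 15 genes were measured. β-catenin (Ctnnb1) and Nherf1 were not among the genes that the array measured under a single symbol. The 3 α-catenins split by tissue. Neuronal αN-catenin (Ctnna2) was lower in ventricle by at least 9.72-fold in Tatdn1-/- (adjusted p = 9.16e-14 in limma) and by at least 8.65-fold in Tatdn1+/+ mice (adjusted p = 1.99e-15), at ventricle values below background. αT-catenin (Ctnna3), which in mouse heart sits at the intercalated disc, averaged 7.51 in ventricles and 2.35 in cortices of Tatdn1-/- mice, and 7.48 in ventricles and 2.49 in cortices of Tatdn1+/+ mice, with no cortex above background. Within Tatdn1+/+ mice, αE-catenin (Ctnna1) was higher in ventricle than in cortex by 2.95 (SE 0.13, adjusted p = 3.9e-13 in limma). Within Tatdn1-/- mice, vinculin (Vcl), an actin linker, was higher in ventricle than in cortex by 3.16 (SE 0.13, adjusted p = 1.82e-12 in limma). Each is given for the genotype where its p was among the 3 smallest of the list, and neither value compares the genotypes. In all, 8 of the 13 were higher and 3 lower in Tatdn1-/- ventricle, and 7 higher and 3 lower in Tatdn1+/+ ventricle. Of all probe sets, 29.8% were higher and 25.3% lower in Tatdn1-/- ventricle, and 29.3% higher and 26.3% lower in Tatdn1+/+ ventricle. For genotype 0 of 13 passed in either tissue (0.0135% of all probe sets did in ventricle and 0.00901% in cortex). In limma 0 had an unadjusted p under 0.05 (8.46% of all in ventricle and 6.98% in cortex).

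The genes of the desmosome and the intercalated disc, the structure in which cardiac N-cadherin works, were higher in ventricle for 11 of 11 in both genotypes (29.8% of all probe sets were in Tatdn1-/- and 29.3% in Tatdn1+/+ mice). Their median difference was 5.81 in Tatdn1-/- and 5.50 in Tatdn1+/+ mice. The intermediate filament protein desmin (Des) averaged 9.94 in ventricles and 1.86 in cortices of Tatdn1-/- mice, and 10.04 in ventricles and 1.80 in cortices of Tatdn1+/+ mice. Desmoplakin (Dsp), which ties desmosomes to those filaments, was higher in ventricle by at least 71.5-fold in Tatdn1-/- (adjusted p = 1.15e-16 in limma) and by at least 90-fold in Tatdn1+/+ mice (adjusted p = 8.97e-18). Neither gene was above background on any cortex array. For genotype 0 of the 11 passed in either tissue (0.0135% of all probe sets did in ventricle and 0.00901% in cortex). The smallest p belonged to plakophilin-2 (Pkp2) in cortex, with means of 2.87 in Tatdn1-/- and 3.83 in Tatdn1+/+ mice (difference -0.96, SE 0.17, adjusted p = 0.0794 in limma), where 0 of 6 and 3 of 6 arrays exceeded background.

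Of 10 receptors and other partners that cadherins are known to work with, 8 were higher and 2 lower in Tatdn1-/- ventricle, and 8 higher and 1 lower in Tatdn1+/+ ventricle (29.8% of all probe sets were higher and 25.3% lower in Tatdn1-/-, and 29.3% higher and 26.3% lower in Tatdn1+/+ ventricle). The VEGF receptor Kdr, which forms a complex with VE-cadherin and is also 1 of the 8 endothelial markers, was higher in ventricle by 3.57 (SE 0.14) in Tatdn1-/- and by 3.64 (SE 0.17) in Tatdn1+/+ mice. The AMPA receptor subunit Gria2, which binds N-cadherin at synapses, was lower in ventricle, opposite to Cdh2, by at least 24-fold in Tatdn1-/- (adjusted p = 1.98e-13 in limma) and at least 20.3-fold in Tatdn1+/+ mice (adjusted p = 7.15e-18), at ventricle values below background. For genotype 0 of 10 passed in either tissue (0.0135% of all probe sets did in ventricle and 0.00901% in cortex).

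Likeness within groups was described after the mean of each of the 4 groups had been taken out, by Pearson's r over 24 arrays of 12 mice. Correlations between members ran from -0.49 (Cdh2 with Cdh3) to 0.584 (Cdh1 with Cdh2). Cdh3 was below background on every array and Cdh1 on every ventricle array. Over 19571 other probe sets with a symbol, the genes most like Cdh4 in this measure were Lrfn3 (0.745), Lvrn (0.733), Eif2s3y (0.716), Ccl11 (0.713) and Olfr294 (0.707). Over the 12 ventricle arrays alone, where every Cdh4 value was below background, these 5 ran from 0.754 to 0.822. Over the 12 cortex arrays alone they were 0.411 for Lrfn3, 0.253 for Lvrn, 0.784 for Eif2s3y, 0.336 for Ccl11 and -0.073 for Olfr294. Eif2s3y is on the Y chromosome, and each group holds both sexes. For Cdh5 they were Tor1aip1 (0.860), Arhgap31 (0.852), Armh3 (0.813), Tubgcp5 (0.801) and Nsmce4a (0.792). For Cdh2 they were Dspp (0.809), Deup1 (0.782), Serpinb6c (0.757), Aldh18a1 (0.754) and Dnajb7 (0.752), and for Cdh13 Ubap1 (0.912), Atp6v0a1 (0.907), Hspa5 (0.876), Slc35f5 (0.876) and Ggcx (0.870). Points on the same array share its labelling and scan.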

How the data were processed

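Total RNA of ventricle and cortex had been hybridised to 24 arrays. The authors deposited log2 values made by RMA, which corrects background, quantile-normalises and summarises each probe set; the sources used here give neither its version nor which arrays were normalised together. The table has 29129 entries. Its 22206 gene-level probe sets entered each test, of which 19572 held 1 gene symbol in the platform table. Background limits were the 95th percentile of 23 control probe sets per array.

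Linear models were fitted for each comparison (limma 3.58.1, lmFit and eBayes, R 4.3.3), and p-values were adjusted over all these probe sets by the Benjamini-Hochberg method, with calls at an adjusted p under 0.05. The fit was tested on simulated data. Genotype was compared within a tissue, tissue within a genotype, and sex with genotype as a term. The p-values measure the spread between mice, and 6 arrays per group limit the precision.

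The members and lists were chosen with earlier results of these data known. Named genes are the members, the 3 smallest p-values of each list and comparison, the 5 genes most alike to Cdh2, Cdh4, Cdh5 and Cdh13, and Tatdn1. Titles give a ventricle and a cortex array 1 animal code, read as 1 mouse; deviations of such pairs from their group means correlated by -0.08 to 0.046 (consensus -0.014). Alternatives were centring, quantile normalisation, removal of the 30% dimmest probe sets, sex as a term, all arrays in 1 fit, each sex alone, the exact Wilcoxon test, the mouse as a block, and each mouse left out. As each member has 1 probe set, averaging probe sets of a gene changes nothing. Promoters came from RefSeq (GRCm38.p6).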

Additional observations from a re-analysis of the deposited data

Results flagged for a closer look

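Of 40 sets of 6 arrays (10 genes in 4 groups), 3 held a value far from the others by Dixon's criterion, which chance alone meets in about 1 of 20 sets. Cdh8 was 7.79 in the Tatdn1-/- cortex of female F77-1, against 8.05 to 8.20 in the other 5. Cdh5 was 5.65 in the Tatdn1+/+ cortex of female F76-1, against 4.93 to 5.18 in the others, and Cdh11 was 7.22 in the Tatdn1+/+ cortex of male M75-1, against 6.55 to 6.62. All 3 are cortex arrays of different mice, and all 3 values were above background.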

How the results depend on the processing

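The Cdh4 genotype difference, whose sign was the ground for choosing the family, is given as a description: it was -1.33 in females and -0.90 in males in ventricle, at values below background, and -0.66 in females and -0.69 in males in cortex. With the mouse as a replicate block (paired), the called probe sets in the tissue comparison numbered 11928 in Tatdn1-/- mice, against 12241 without it, and 12154 in Tatdn1+/+ mice, against 12331, and no call of a member changed. Centring gave 16458 in Tatdn1-/- and 17807 in Tatdn1+/+ mice, and leaving out single mice gave 11396 to 12785 in Tatdn1-/- and 11629 to 11990 in Tatdn1+/+ mice.

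The genotype calls over all probe sets were few and moved. In ventricle 3 became 24 with all arrays in 1 fit and 0 in females alone, in males alone and by the exact Wilcoxon test, and leaving out single mice gave 0 (M75-2, M78-1) to 5 (F76-2). In cortex 2 became 4 with centring or quantile normalisation, 8 with sex as a term, 34 in 1 fit, and 0 in females alone, in males alone and by the Wilcoxon test, and leaving out single mice gave 1 (M75-0, M75-1, F76-2, F77-1) to 16 (F77-3). Calls for the difference between tissues went to 0 with centring, against 3, and to 0 to 13 without single mice (10 without M78-0, 13 without F77-3). Sex calls, 4 in each tissue, were 4 to 6 in ventricle and 4 to 9 in cortex without single mice (9 without F77-1).

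Some uncalled genotype differences changed sign. In ventricle, Cdh1 was -0.024 with centring and -0.27 in females, Cdh3 was -0.008 in females, and in males Cdh15 was -0.15, Cdh8 -0.17 and Cdh11 0.35. In cortex, Cdh1 was 0.066 in females, and in males Cdh15 was -0.048 and Cdh6 0.003. Without single mice, ventricle differences ranged from -0.10 to 0.14 for Cdh1, -0.01 to 0.24 for Cdh3 and -0.27 to 0.016 for Cdh11. Cortex differences ranged from -0.017 to 0.14 for Cdh15, -0.10 to 0.008 for Cdh6, -0.16 to 0.009 for Cdh11 and -0.06 to 0.21 for Cdh13. The cause was not tested. Signal near background limits Cdh1, Cdh3 and Cdh15 in both tissues and Cdh4, Cdh6, Cdh8 and Cdh11 in ventricle.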

Other observations

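Of 19 measured genes of the wider superfamily, 5 were higher and 8 lower in Tatdn1-/- ventricle, and 3 higher and 8 lower in Tatdn1+/+ ventricle. Of all probe sets, 29.8% were higher and 25.3% lower in Tatdn1-/- ventricle, and 29.3% higher and 26.3% lower in Tatdn1+/+ ventricle. The calsyntenins, which act at synapses, were among the lower ones: Clstn3 was lower by at least 23.8-fold in Tatdn1-/- and at least 17.8-fold in Tatdn1+/+ mice, with ventricle values below background, and Clstn1, above background in both tissues, differed by -2.89 in Tatdn1-/- and -3.08 in Tatdn1+/+ mice. The nectins, which start junctions beside cadherins, were split: Nectin2 was higher in ventricle by 3.69 in Tatdn1-/- and 2.91 in Tatdn1+/+ mice, where 1 of 6 Tatdn1-/- and 2 of 6 Tatdn1+/+ cortices exceeded background. Nectin1, below background on every ventricle array, was lower there by at least 4.57-fold in Tatdn1-/- and at least 3.82-fold in Tatdn1+/+ mice. Of the repressors of E-cadherin transcription, 4 of 7 were higher in ventricle in both genotypes, with Snai2 higher by at least 4.57-fold in Tatdn1-/- and at least 4.6-fold in Tatdn1+/+ mice, at cortex values below background. Furin, which cleaves cadherin precursors, was higher in ventricle by 1.49 in Tatdn1-/- and 1.63 in Tatdn1+/+ mice, and Pcsk5, of the same enzyme family, was lower by at least 1.43-fold in Tatdn1-/- and at least 1.36-fold in Tatdn1+/+ mice, at ventricle values below background.

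For genotype, 0 genes of these 4 lists passed in either tissue (0.0135% of all probe sets did in ventricle and 0.00901% in cortex). The smallest p among them belonged to Celsr1, a planar polarity cadherin, with means of 4.11 in Tatdn1-/- and 3.31 in Tatdn1+/+ ventricles (difference 0.79, SE 0.17, adjusted p = 0.223 in limma). It exceeded background in 4 of 6 Tatdn1-/- and 0 of 6 Tatdn1+/+ ventricles. Nectin2 averaged 6.75 in Tatdn1-/- and 6.29 in Tatdn1+/+ ventricles (difference 0.46, SE 0.13, adjusted p = 0.388 in limma).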
